A study of Arabidopsis thaliana with 12 samples.

Results

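The genes described here are the aquaporins of Arabidopsis thaliana, the channel proteins that carry water and small uncharged solutes across membranes. They were chosen as the rows of the count table that carry 35 listed locus identifiers, out of 33655 features in all. The list holds 13 plasma membrane intrinsic proteins (PIP), 10 tonoplast intrinsic proteins (TIP), 9 NOD26-like intrinsic proteins (NIP) and 3 small basic intrinsic proteins (SIP). Gene names are written with a hyphen, so that PIP2-2 stands for the gene otherwise written with a semicolon between the digits. All 35 rows were in the table, and 26 of them had enough counts to be tested: 13 PIP, 6 TIP, 4 NIP and 3 SIP genes.

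The study asked how SPA proteins bear on gene expression at high ambient temperature. It holds 12 libraries of whole seedlings, 3 for each of 4 groups: Col-0 at 22 °C, Col-0 at 28 °C, spaQ at 22 °C and spaQ at 28 °C. Col-0 is the wild-type accession, and spaQ is a mutant line of the SPA genes, which encode partners of the ubiquitin ligase COP1; the labels name no alleles. All seedlings were 6 days old. They had passed through 3 days of cold stratification and 5 days under white light (25 µmol) at 22 °C, and then received the temperature treatment, whose length is given as 4 h in the sample protocols and as 24 h in the text for the series. Nothing in the labels says that replicates came from separate cultures, so the p-values measure the spread between these samples, which may be technical.

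Aquaporins sit in membranes as tetramers, and each subunit forms a pore of its own. PIPs set much of the water permeability of the plasma membrane in roots and leaves, and TIPs do the same for the vacuole, whose filling drives the growth of expanding cells. NIPs carry mainly other solutes, such as boric acid and arsenite, and SIPs reside in the endoplasmic reticulum. Transcript level is only one of the layers that control them, beside trafficking, phosphorylation and gating by pH.

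Total counts ran from 2609808 to 9390725 per library, so that 3 counts, taken as the detection floor, corresponded to 0.279 to 1.25 CPM (counts scaled to a common library size after TMM normalisation). SPA1, SPA2 and SPA3 were lower in spaQ than in Col-0 without overlap. SPA1, for example, lay between 17.1 and 25.3 CPM in the 6 spaQ libraries and between 61.1 and 71.4 CPM in the 6 Col-0 libraries. SPA4 was higher, at 26.1 to 40.5 CPM in spaQ and 12 to 18.1 CPM in Col-0; whether the 3′ tags lie outside the mutated stretches was not tested, so these levels check the labels only in part. The tissue label was met by markers of both organs, and the 6 leaf mesophyll markers were above the floor in all 4 groups. Most of the 21 root markers were above it too. Those at or under the floor in every library of a group numbered 1 in Col-0 at 22 °C, 3 in Col-0 at 28 °C and 2 in each spaQ group. NRT2.1 alone was at 0 in all libraries of a group (spaQ at 22 °C). Replicate 2 of spaQ at 28 °C and replicate 1 of spaQ at 22 °C stood apart from the other libraries of their groups. The first was the highest of its group for 18 of the 26 tested aquaporins and for 15 of 17 tested root markers, against 38.9% of all tested genes. The second was the highest for 21 of 26 aquaporins and 14 of 17 root markers, against 34.2% of all genes.

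Because each transcript is counted near its 3′ end, near-identical ends matter for these families. PIP2-2 (chr2:15613368-15615022, minus strand, TAIR10.1) and PIP2-3 (chr2:15617635-15619155, plus strand) are protein-coding neighbours that point away from each other, 2612 bases apart with 0 annotated genes between them. Their coding sequences were 94.8% identical. The last 90 coding bases of each, from RefSeq's TAIR10.1 annotation, are shown with the 10 differing positions in capitals. This pair had the highest coding identity of any 2 members of the same class.
PIP2-2: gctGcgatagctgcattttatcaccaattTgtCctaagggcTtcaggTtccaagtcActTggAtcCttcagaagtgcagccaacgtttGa
PIP2-3: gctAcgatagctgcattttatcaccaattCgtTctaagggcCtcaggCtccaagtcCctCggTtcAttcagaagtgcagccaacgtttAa
Of the 451 windows of 50 bases in the last 500 transcript bases, 54 of PIP2-2 and 58 of PIP2-3 also occurred in the other gene. Reads from these windows could be assigned to either gene or left uncounted. NIP2-1 and NIP3-1 shared such windows with other loci, 144 and 137 of 451, and both were too low to be tested. In addition, 8 aquaporins overlap a gene on the other strand (TIP2-1, TIP3-1, TIP3-2, TIP5-1, NIP2-1, NIP6-1, SIP1-2 and SIP2-1). Their counts are uncertain, since the strand setting of the counting is not given in the sources used here.

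In Col-0 at 22 °C the aquaporins together took 7140, 7350 and 7470 CPM. They took 6630, 5730 and 5510 CPM in Col-0 at 28 °C. In spaQ the sums were lower: 3800, 3070 and 3190 CPM for the libraries at 22 °C, then 3300, 5320 and 3050 CPM for those at 28 °C. The 4 groups therefore fell into an order in which Col-0 at 22 °C was highest, Col-0 at 28 °C next and both spaQ groups lowest, and the 2 spaQ groups overlapped each other. Replicate 2 of spaQ at 28 °C stood far above the other libraries of that line but below all Col-0 libraries. PIP genes made up 53.6% ± 1.1 of this sum (SD, n = 3) in Col-0 at 22 °C and 67.8% ± 0.245 in spaQ at 22 °C. TIP genes made up 43.5% ± 1.09 and 23.6% ± 1.71 in the same groups. At 28 °C the TIP share overlapped between the genotypes, at 24.8% to 39.1% in spaQ and 36.2% to 42.5% in Col-0. In these bulk samples fewer cells of a type and less RNA per cell cannot be told apart.

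**Figure D1:**
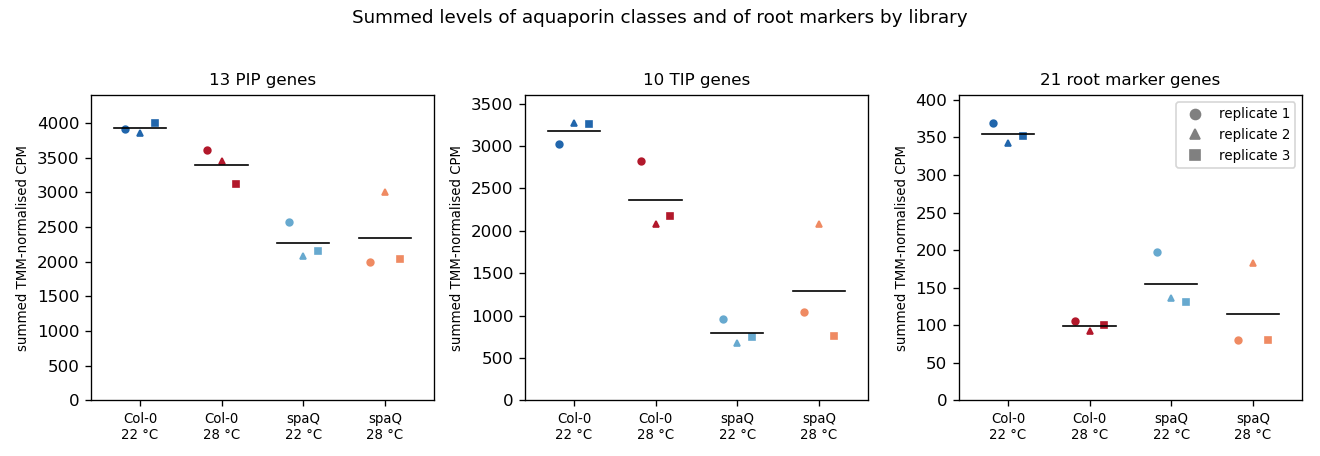
Summed TMM-normalised CPM of the 13 PIP genes, the 10 TIP genes and the 21 root marker genes in each of the 12 libraries. Symbols give the replicate and the bars the mean of 3 libraries. The TIP sum was 3020 to 3270 in Col-0 at 22 °C and 675 to 966 in spaQ at 22 °C, and the root marker sum was 343 to 369 in Col-0 at 22 °C and 92.5 to 106 at 28 °C.

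The first comparison asked what 28 °C did in the wild type. In Col-0, 10 aquaporins were lower and 1 was higher at 28 °C by edgeR's quasi-likelihood test at an adjusted p under 0.05 (called below). These 11 of 26 tested members stand against 40.8% called among all 17841 tested genes (21.9% lower and 18.9% higher). With TMM replaced by library totals the split was 5 lower and 3 higher. The count was 6 or 7 without any 1 Col-0 library other than replicate 2 at 28 °C. The groups did not overlap for 18 of 26 members, against 59.5% of all tested genes, and 5 members were called with a change of at least 1 on the log2 scale, against 18.1%. The median log2 fold change of the 26 members was -0.38, and that of all tested genes was -0.02. The genes that fell most were TIP2-3, TIP4-1, PIP2-4 and NIP1-1, all at low levels in these seedlings. TIP2-3 and PIP2-4 passed the filter on low counts only through the Col-0 libraries at 22 °C, so they had to be highest there. Both are among the 10 lower members and the 5 past 1 on the log2 scale, and their fall supports nothing.

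Among the PIP genes, 5 of 13 were lower at 28 °C in Col-0 and 0 were higher, with 7 at an unadjusted p under 0.05 and 4 lower by DESeq2. PIP2-4 (AT5G60660), a water channel of the plasma membrane, had 14.5, 16.5 and 21.5 CPM at 22 °C and 2.42, 3.08 and 2.07 CPM at 28 °C. The groups were far apart and the change was -2.84 ± 0.26 on the log2 scale (± SE, edgeR adjusted p = 1.7e-05). PIP2-2 (AT2G37170), one of the PIPs known to act in root water transport, had 190, 191 and 189 CPM at 22 °C and 95, 114 and 83.3 CPM at 28 °C. The groups did not overlap and the change was -0.97 ± 0.34 (edgeR adjusted p = 0.037). PIP1-3 (AT1G01620) had 321, 340 and 346 CPM at 22 °C and 208, 200 and 194 CPM at 28 °C, again without overlap, with a change of -0.74 ± 0.24 (edgeR adjusted p = 0.024). PIP1-1 fell by 0.61 and PIP2-7 by 0.41 on the log2 scale (edgeR adjusted p = 0.011 and 0.0497). The most counted PIP of these libraries, PIP1-2, had 967, 901 and 978 CPM at 22 °C and 1080, 1040 and 934 CPM at 28 °C, and the groups overlapped. PIP1-3 was no longer called without any 1 of the 6 Col-0 libraries (adjusted p up to 0.087). PIP2-2 was not called without any 1 of these 6 or replicate 3 of spaQ at 22 °C (up to 0.12), PIP2-7 without any 1 of the same 7 or replicate 2 of spaQ at 22 °C or replicate 3 at 28 °C (up to 0.18) and PIP1-1 without replicate 1 of Col-0 at 22 °C (0.055). PIP2-4 was called in all 12, but it was tested only through its Col-0 libraries at 22 °C, which favoured a fall. With library totals in place of TMM, PIP1-1, PIP1-3, PIP2-2 and PIP2-7 were not called (adjusted p = 0.086, 0.099, 0.096 and 0.37). PIP2-7 was also not called by DESeq2 (0.051), with DESeq2's size factors (0.061), without the filter (0.14) or with the replicate block (0.081). With only the Col-0 libraries fitted, PIP1-1, PIP1-3, PIP2-2 and PIP2-7 were called lower (edgeR adjusted p = 0.000125, 1.2e-05, 2.7e-05 and 0.0027).

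All 6 tested TIP genes had a lower mean at 28 °C in Col-0, and 3 of them were called lower. TIP2-3 (AT5G47450), a vacuolar channel that also passes ammonia, was near 10 CPM at 22 °C, with 13, 12 and 8.95 CPM, and fell to 0.743, 0.514 and 0.461 CPM at 28 °C. These latter values rest on 8, 2 and 4 reads. The fitted change was -4.18 ± 0.46 (edgeR adjusted p = 4.1e-05). TIP4-1 (AT2G25810) had 18.4, 12.9 and 18.3 CPM at 22 °C and 2.42, 0.771 and 2.76 CPM at 28 °C, a change of -2.91 ± 0.68 (edgeR adjusted p = 0.0046). TIP2-2 (AT4G17340), close in sequence to TIP2-3 at 81.5% identity of the coding bases, went from 58.2, 57.3 and 60.2 CPM to 36.6, 43.9 and 35.9 CPM, a change of -0.60 ± 0.18 (edgeR adjusted p = 0.019). TIP2-2 was not called in 5 of 12 fits that left out 1 library, the 3 of Col-0 at 22 °C and replicates 1 and 3 at 28 °C (adjusted p up to 0.078). The 3 most counted TIPs, TIP1-1 (AT2G36830), TIP1-2 and TIP2-1 (AT3G16240), did not pass the test in Col-0 with all 12 libraries fitted. Their log2 fold changes were -0.66 ± 0.32, -0.29 ± 0.25 and -0.49 ± 0.33 (edgeR adjusted p = 0.12, 0.39 and 0.26). The groups did not overlap in TIP1-1 and TIP2-1, and with only the Col-0 libraries fitted these 2 were called lower, at -0.61 and -0.44 (edgeR adjusted p = 0.00013 and 0.011). TIP1-1 was also called without replicate 2 of spaQ at 28 °C (edgeR adjusted p = 0.0094). TIP2-2 was not called with library totals in place of TMM (adjusted p = 0.12). It was called with only the Col-0 libraries fitted (edgeR adjusted p = 0.0007).

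Among the 4 tested NIP genes, NIP1-1 and NIP5-1 fell in Col-0. NIP1-1 (AT4G19030), which passes arsenite, had 19.9, 16.5 and 19.9 CPM at 22 °C and 2.88, 1.8 and 5.18 CPM at 28 °C, a change of -2.43 ± 0.36 (edgeR adjusted p = 0.00022). NIP5-1 (AT4G10380), the channel for boric acid uptake into roots, had 35.6, 39.4 and 34 CPM at 22 °C and 16.7, 22.6 and 12.9 CPM at 28 °C, a change of -1.09 ± 0.26 (edgeR adjusted p = 0.0045). In both genes the groups stood apart. The 1 member that rose was SIP1-1 (AT3G04090), of the endoplasmic reticulum, from 73.9, 75.2 and 70.5 CPM to 92.5, 82.2 and 97.6 CPM, a change of 0.31 ± 0.11 (edgeR adjusted p = 0.042). That call was lost without replicate 3 at 22 °C or replicate 1 or 3 at 28 °C (adjusted p up to 0.15) and with the replicate block (0.077). It was kept with only the Col-0 libraries fitted (edgeR adjusted p = 0.0055).

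Root markers moved with these aquaporins. Of 17 tested root markers, 15 were lower at 28 °C in Col-0, and the sum of the list of 21 went from 343 to 369 CPM down to 92.5 to 106 CPM. PHO1, a phosphate exporter of the root stele, changed by -2.23 on the log2 scale (edgeR adjusted p = 1.7e-05). IRT1, the iron transporter of the root epidermis, had 67.4 to 85.6 CPM at 22 °C and 0.257 to 0.465 CPM at 28 °C, and LRX1, a root hair wall protein, had 8.05 to 8.74 CPM and then 0 to 0.461 CPM. Leaf mesophyll markers were lower as well, 4 of 6, with sums of 32000 to 35300 CPM at 22 °C and 14500 to 15700 CPM at 28 °C. The part of either list in the aquaporin values was not tested.

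**Figure D2:**
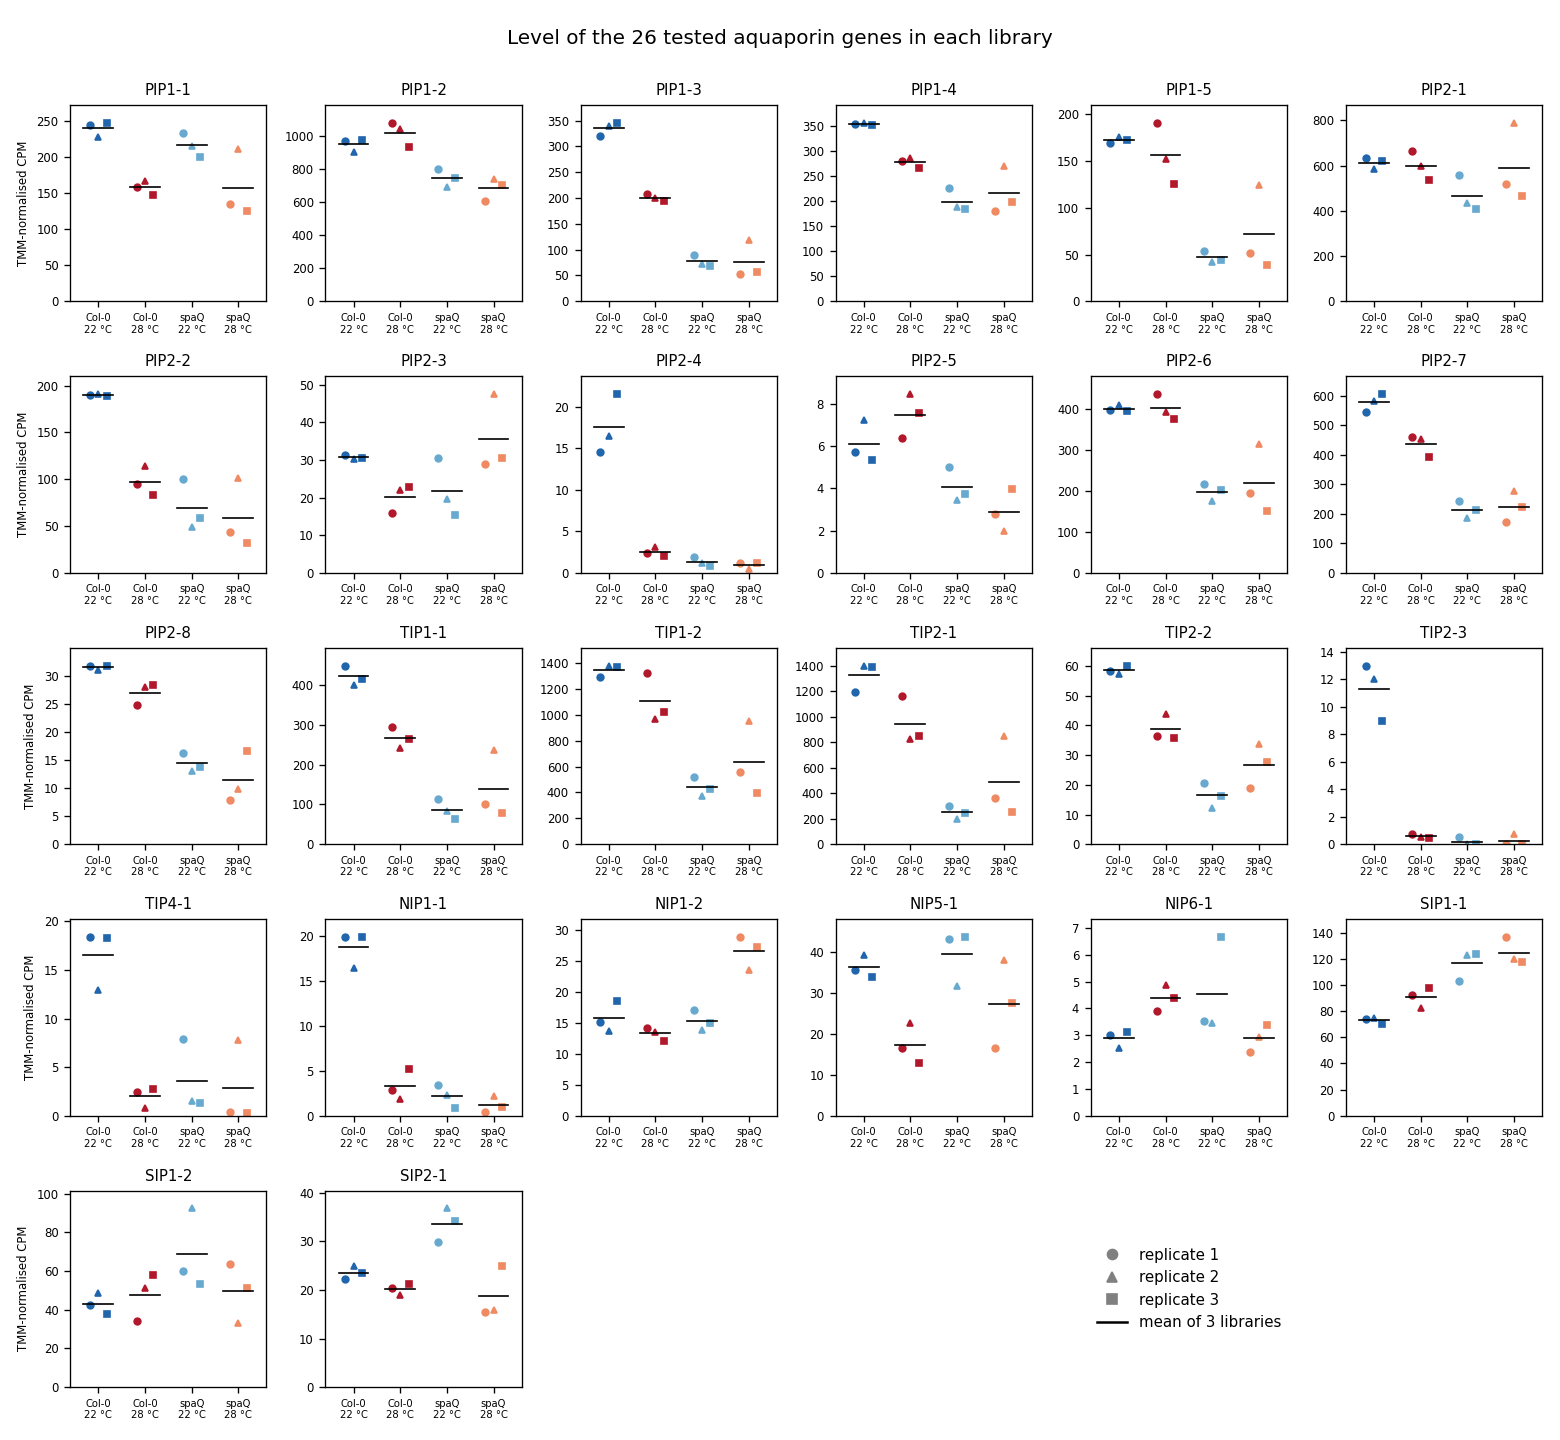
TMM-normalised CPM of each of the 26 tested aquaporin genes in the 12 libraries, by genotype and temperature, on linear axes from 0. Symbols give the replicate and the bars the mean of 3 libraries. In TIP1-1 the 3 spaQ libraries at 22 °C lay at 63 to 114 CPM and those of Col-0 at 401 to 450 CPM, and replicate 2 of spaQ at 28 °C, at 236 CPM, stood above the other spaQ libraries.

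The second comparison set spaQ against Col-0 at 22 °C. Here 16 aquaporins were lower in spaQ and 2 were higher, so 18 of 26 tested members were called, against 42.5% of all tested genes (21.7% lower and 20.7% higher). The genotypes did not overlap for 22 of 26 members, against 58.1% of all tested genes, and 14 members were called with a change of at least 1 on the log2 scale, against 20%. The median log2 fold change was -1.06 for the members and -0.05 for all tested genes. Of the tonoplast channels, 6 of 6 tested TIPs were lower, with a median log2 fold change of -2.09. TIP2-3, 1 of these 6, and PIP2-4 passed the filter on low counts only through the Col-0 libraries at 22 °C. Both therefore had to be lower in spaQ, and both are among the 16 lower members and the 14 past 1 on the log2 scale. Of the PIPs, with a median of -1.02, 9 of 13 were lower and 0 were higher, with 9 at an unadjusted p under 0.05.

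TIP1-1 and TIP2-1 are water channels of vacuoles in vegetative tissue. TIP1-1 had 450, 401 and 417 CPM in Col-0 and 114, 83.5 and 63 CPM in spaQ, a change of -2.27 ± 0.34 (edgeR adjusted p = 0.00023). TIP2-1 (AT3G16240) had 1190, 1400 and 1390 CPM in Col-0 and 302, 201 and 245 CPM in spaQ, a change of -2.41 ± 0.35 (edgeR adjusted p = 0.00021). In both genes the lowest Col-0 library was more than 3 times the highest spaQ library. TIP1-2 (AT3G26520) had 1290, 1380 and 1370 CPM in Col-0 and 520, 375 and 425 CPM in spaQ, a change of -1.61 ± 0.26 (edgeR adjusted p = 0.0004). TIP2-2 had 20.7, 12.3 and 16.3 CPM in spaQ and changed by -1.79 ± 0.20 (edgeR adjusted p = 3.3e-05). TIP2-3 had 0.504, 0 and 0 CPM in spaQ, at or under the floor of 3 counts in every library, which makes it at least 11.7-fold lower than in Col-0. TIP4-1 had 7.9, 1.53 and 1.25 CPM in spaQ and changed by -1.92 ± 0.69 (edgeR adjusted p = 0.038). Replicate 1 decided that value, which was -3.54 without it. The call was lost without any 1 of the 3 Col-0 libraries at 22 °C, replicate 1 or 3 of Col-0 at 28 °C or replicate 2 or 3 of spaQ at 22 °C (adjusted p up to 0.12), by DESeq2 (0.12) and with the replicate block (0.055).

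PIP2-4, which was tested only because its Col-0 libraries at 22 °C passed the filter and so had to be lower elsewhere, had 1.85, 1.15 and 0.834 CPM in spaQ at 22 °C, a change of -3.60 ± 0.32 (edgeR adjusted p = 5.5e-06). PIP1-3 had 90.1, 72 and 69.2 CPM in spaQ against 321 to 346 CPM in Col-0, a change of -2.11 ± 0.25 (edgeR adjusted p = 4.2e-05). PIP1-5 (AT4G23400) had 169, 176 and 172 CPM in Col-0 and 54.3, 42.1 and 44.2 CPM in spaQ, a change of -1.87 ± 0.33 (edgeR adjusted p = 0.00078). None of these 3 genes showed overlap between the genotypes. PIP2-2, PIP2-7, PIP2-8 and PIP2-6 differed by -1.44, -1.43, -1.11 and -1.02 on the log2 scale. PIP1-4 and PIP1-2 differed by -0.83 and -0.35, and the second of these was not called without any 1 of the 3 Col-0 libraries at 22 °C or replicate 2 or 3 of spaQ at 22 °C (adjusted p up to 0.097), nor without the filter on low counts (0.065). The PIPs that were not called were PIP1-1, PIP2-1, PIP2-3 and PIP2-5. PIP2-1, a main water channel of roots and leaves, had 632, 584 and 622 CPM in Col-0 and 560, 435 and 407 CPM in spaQ.

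NIP1-1 had 3.36, 2.3 and 0.834 CPM in spaQ at 22 °C against 16.5 to 19.9 CPM in Col-0, a change of -2.93 ± 0.42 (edgeR adjusted p = 0.00017) that was -3.53 without replicate 1 of spaQ at 22 °C. Its close relative NIP1-2 and the boric acid channel NIP5-1 overlapped between the genotypes at this temperature, at 13.8 to 17.1 and 13.7 to 18.6 CPM for the first and 31.8 to 43.8 and 34 to 39.4 CPM for the second, spaQ given first. The 2 members that were higher in spaQ were SIPs. SIP1-1 had 103, 123 and 124 CPM against 73.9, 75.2 and 70.5 CPM in Col-0, a difference of 0.67 ± 0.12 (edgeR adjusted p = 0.00066). SIP2-1 (AT3G56950), whose locus overlaps a gene on the other strand, had 29.9, 36.8 and 34.2 CPM against 22.3, 24.9 and 23.5 CPM, a difference of 0.50 ± 0.17 (edgeR adjusted p = 0.029). The SIP2-1 call was lost without replicate 1 or 3 of Col-0 or replicate 2 or 3 of spaQ at 22 °C (adjusted p up to 0.092) and with library totals (0.066). Root markers were lower in spaQ as well, 9 of 17 with 1 higher, and their sum was 131 to 198 CPM against 343 to 369 CPM. Of the 6 leaf markers 4 were higher and 1 was lower. Their part in the aquaporin differences was not tested.

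At 28 °C spaQ had 11 aquaporins lower and 3 higher than Col-0, or 14 of 26 tested, against 30.9% of all tested genes (13.5% lower and 17.4% higher). By library totals in place of TMM the split was 16 lower and 1 higher, and without replicate 1 of Col-0 at 28 °C 8 members were called. The genotypes did not overlap for 15 of 26 members, against 40.7% of all tested genes, and 5 members were called with a change of at least 1 on the log2 scale, against 14.4%. The median log2 fold change was -0.64 for the members and 0.03 for all tested genes. The lower ones were 8 PIPs and 3 TIPs. At this temperature the root markers overlapped between the genotypes, at 80.1 to 183 CPM in spaQ and 92.5 to 106 CPM in Col-0, and of 17 tested 1 was lower and 2 were higher. Leaf markers were higher in spaQ for 4 of 6, at 28100 to 42600 CPM against 14500 to 15700 CPM.

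PIP1-3 had 52.3, 119 and 56.2 CPM in spaQ, while Col-0 had 208, 200 and 194 CPM, a change of -1.40 ± 0.24 (edgeR adjusted p = 0.00081). PIP2-8 (AT2G16850) had 7.92, 9.78 and 16.6 CPM in spaQ and 24.7, 28 and 28.3 CPM in Col-0, a change of -1.23 ± 0.20 (edgeR adjusted p = 0.00057). PIP2-5 (AT3G54820), which was not called at 22 °C, had 2.77, 1.96 and 3.99 CPM in spaQ and 6.41, 8.48 and 7.6 CPM in Col-0, a change of -1.36 ± 0.28 (edgeR adjusted p = 0.0027). The genotypes did not overlap in these 3 genes. PIP1-5, PIP2-7, PIP2-6 and PIP1-2 differed by -1.11, -0.96, -0.86 and -0.57 on the log2 scale, and PIP2-4 by -1.38, from 4 reads at most per spaQ library. PIP1-5 was not called without replicate 1 of Col-0 or replicate 1 or 3 of spaQ at 28 °C (adjusted p up to 0.074), and its change was -1.82 without replicate 2 of spaQ. PIP2-4 was not called without replicate 1 or 2 of Col-0 or replicate 2 of spaQ at 28 °C (adjusted p up to 0.12), nor by DESeq2 (0.06).

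The TIP values at 28 °C also depended on replicate 2 of spaQ. TIP1-1 had 102, 236 and 77.3 CPM in spaQ and 295, 242 and 265 CPM in Col-0, a change of -0.94 ± 0.32 (edgeR adjusted p = 0.042). TIP2-1 had 363, 847 and 254 CPM in spaQ and 1160, 822 and 847 CPM in Col-0, a change of -0.95 ± 0.34 (edgeR adjusted p = 0.049). The groups overlapped in TIP2-1 and were separated in TIP1-1 by a narrow gap. Without that replicate the changes were -1.61 and -1.65 (edgeR adjusted p = 4.5e-05 and 4.2e-05). TIP1-2 changed by -0.80 ± 0.25 (edgeR adjusted p = 0.029) with all libraries and by -1.26 without that replicate. The TIP2-1 call was lost without any 1 of the other 11 libraries (adjusted p up to 0.16). The TIP1-2 call was lost without replicate 1 or 3 of either genotype at 28 °C (up to 0.12). The TIP1-1 call was lost without these 4, replicate 2 of Col-0 at 28 °C, replicate 2 or 3 of Col-0 at 22 °C or replicate 2 of spaQ at 22 °C (up to 0.15). With only the libraries at 28 °C fitted, TIP1-1, TIP1-2, TIP2-1 and also PIP1-5 were not called (edgeR adjusted p = 0.1, 0.094, 0.13 and 0.077), and TIP2-1 was not called with the replicate block (0.053). Without replicate 2, 17 members were called at 28 °C, 15 of them lower.

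The members that were higher in spaQ at 28 °C were NIP1-2 (AT4G18910), PIP2-3 and SIP1-1. NIP1-2, a transporter known for moving aluminium malate in roots, had 28.9, 23.5 and 27.3 CPM in spaQ and 14.2, 13.6 and 12.1 CPM in Col-0. The groups were far apart and the difference was 0.99 ± 0.15 (edgeR adjusted p = 0.00032). PIP2-3 (AT2G37180) had 28.9, 47.5 and 30.4 CPM in spaQ and 16, 22.1 and 22.7 CPM in Col-0, a difference of 0.84 ± 0.24 (edgeR adjusted p = 0.018). Its neighbour PIP2-2, with the near-identical coding sequence shown above, had 43.2, 101 and 31.6 CPM in spaQ and 95, 114 and 83.3 CPM in Col-0, a difference of -0.71 ± 0.35 that was not called (edgeR adjusted p = 0.15). Without replicate 2 of spaQ at 28 °C the PIP2-3 difference was 0.54 (edgeR adjusted p = 0.088) and that of PIP2-2 was -1.42 (edgeR adjusted p = 0.00088). Without replicate 1 of Col-0 at 28 °C the PIP2-3 call was lost as well (adjusted p = 0.086), as it was with library totals (0.085). SIP1-1 was at 118 to 137 CPM against 82.2 to 97.6 CPM, a difference of 0.46 ± 0.11 (edgeR adjusted p = 0.0077). It was not called with library totals (0.19 on the log2 scale, adjusted p = 0.18) or with only the libraries at 28 °C (adjusted p = 0.059).

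**Figure D3:**
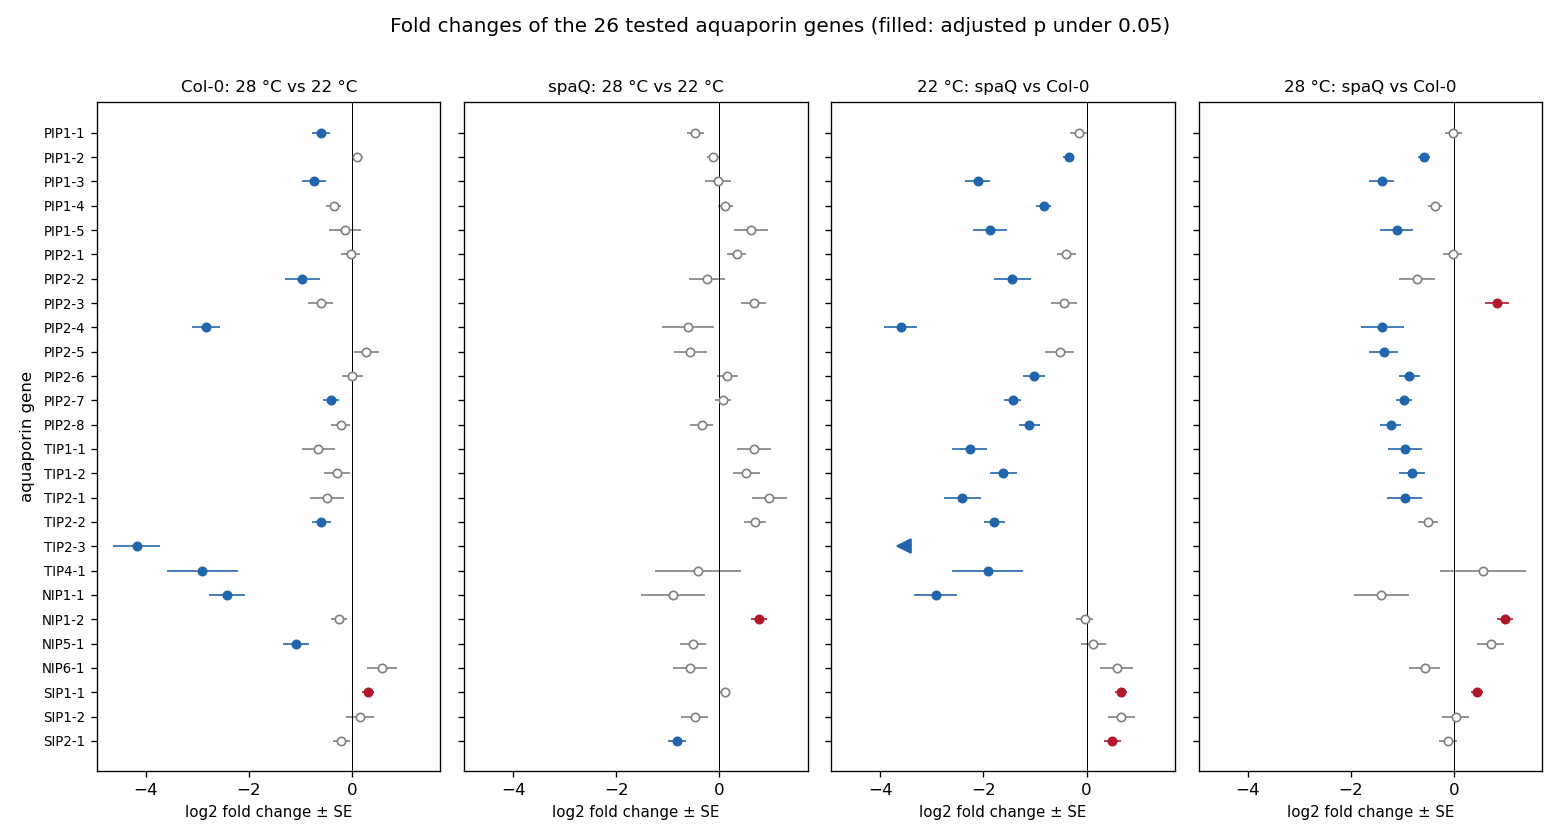
Log2 fold changes with their SE for the 26 tested aquaporins in 4 comparisons, with filled points for an adjusted p under 0.05 (blue lower, red higher) and open grey points for the rest. The triangle gives the bound of TIP2-3 at 22 °C, which was at least 11.7-fold lower in spaQ, and this gene has no value where both groups were at or under the floor or no bound could be had. At 22 °C 16 points lie lower and called, and within spaQ 1 does.

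Within spaQ, 28 °C against 22 °C gave 2 called members of 26, against 12.4% of all tested genes (5.87% lower and 6.55% higher). The groups did not overlap for 3 of 26 members, against 25.6% of all tested genes, and 0 members were called with a change of at least 1 on the log2 scale, against 4.42%. NIP1-2 rose from 17.1, 13.8 and 15 CPM to 28.9, 23.5 and 27.3 CPM, a change of 0.77 ± 0.16 (edgeR adjusted p = 0.0092). SIP2-1 fell from 29.9, 36.8 and 34.2 CPM to 15.4, 15.9 and 24.9 CPM, a change of -0.83 ± 0.17 (edgeR adjusted p = 0.0096). In both genes the groups did not overlap, and both were called in all 12 fits that left out 1 library. Neither was called with only the spaQ libraries fitted (edgeR adjusted p = 0.059 for NIP1-2 and 0.082 for SIP2-1). Of the PIPs 0 of 13 and of the TIPs 0 of 6 were called, each with 2 at an unadjusted p under 0.05, and DESeq2 called 0 PIPs and 1 TIP. The median log2 fold change of the members was 0.02, as it was for all tested genes. Of the 17 root markers 0 were called, with 3 at an unadjusted p under 0.05.

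The count within spaQ depended on single libraries. Without replicate 2 of spaQ at 28 °C 7 members were called, 6 of them lower: PIP1-1, PIP1-3, PIP2-2, TIP4-1, NIP5-1 and SIP2-1. Without replicate 3 of spaQ at 28 °C 5 were called, and TIP1-2 and TIP2-1 were then among the higher ones. Without replicate 1 of spaQ at 22 °C 4 were called, of which PIP2-3, TIP2-2 and NIP1-2 were higher. With both libraries that stood apart left out, 6 were called, 3 in each direction.

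The last comparison tested whether the change with temperature differed between the genotypes, as the change in spaQ minus the change in Col-0. It was called for 4 of 26 members, all in the direction of a more positive change in spaQ, against 11.9% of all tested genes (6.58% more positive and 5.29% more negative). All 4 were past 1 on the log2 scale, as were 7.14% of all tested genes. The median was 0.65 for the members and 0.06 for all tested genes. The members' median fell to 0.087 once replicate 2 of spaQ at 28 °C was dropped. It came to 0.297 with both libraries that stood apart dropped, and to 0.49 to 0.855 with any other 1 library dropped. TIP2-2 changed by -0.60 in Col-0 and by 0.69 ± 0.21 in spaQ, where it had 20.7, 12.3 and 16.3 CPM at 22 °C and 19, 33.8 and 27.6 CPM at 28 °C, a difference of 1.29 ± 0.28 (edgeR adjusted p = 0.014). NIP1-2 changed by -0.25 in Col-0, not called, and rose by 0.77 in spaQ, a difference of 1.02 ± 0.22 (edgeR adjusted p = 0.014). PIP2-3 changed by -0.61 in Col-0 and by 0.66 in spaQ, neither of them called, and the difference was 1.27 ± 0.35 (edgeR adjusted p = 0.033). PIP2-4 fell by 2.84 on the log2 scale in Col-0 and was near the floor in spaQ at both temperatures, with 2 to 11 reads per library, and its difference was 2.22 ± 0.62 (edgeR adjusted p = 0.035). Since this gene passed the filter only through Col-0 at 22 °C, a positive difference was favoured by that choice and supports nothing.

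The 4 calls differed in how far they rested on single libraries. TIP2-2 and NIP1-2 were called in 11 of 12 fits that left out 1 library, with adjusted p of 0.051 for each without replicate 3 of spaQ at 22 °C. PIP2-3 was not called without any 1 Col-0 library, replicate 2 or 3 of spaQ at 22 °C or replicate 2 of spaQ at 28 °C (adjusted p up to 0.098). PIP2-4 was called without replicate 2 of Col-0 at 28 °C, replicate 1 of spaQ at 22 °C or replicate 2 of spaQ at 28 °C, and without any other 1 library it was not (up to 0.11). With library totals or the replicate block neither was called (adjusted p = 0.068 and 0.064 for PIP2-3, 0.053 and 0.068 for PIP2-4), and PIP2-4 was not called without the filter (0.054). The count of 4 became 0 without replicate 3 of spaQ at 22 °C, 7 without replicate 1 there and 8 without replicate 3 of spaQ at 28 °C. It became 2 without replicate 2 of spaQ at 22 °C or any 1 Col-0 library other than replicate 2 at 28 °C. TIP1-1 and TIP2-1 had differences of 1.33 ± 0.46 and 1.46 ± 0.48 that were not called (edgeR adjusted p = 0.08 and 0.066). Root markers were called for 4 of 17 in the same direction, PHO1 with a difference of 1.90, and their part in the aquaporin values was not tested.

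**Figure D4:**
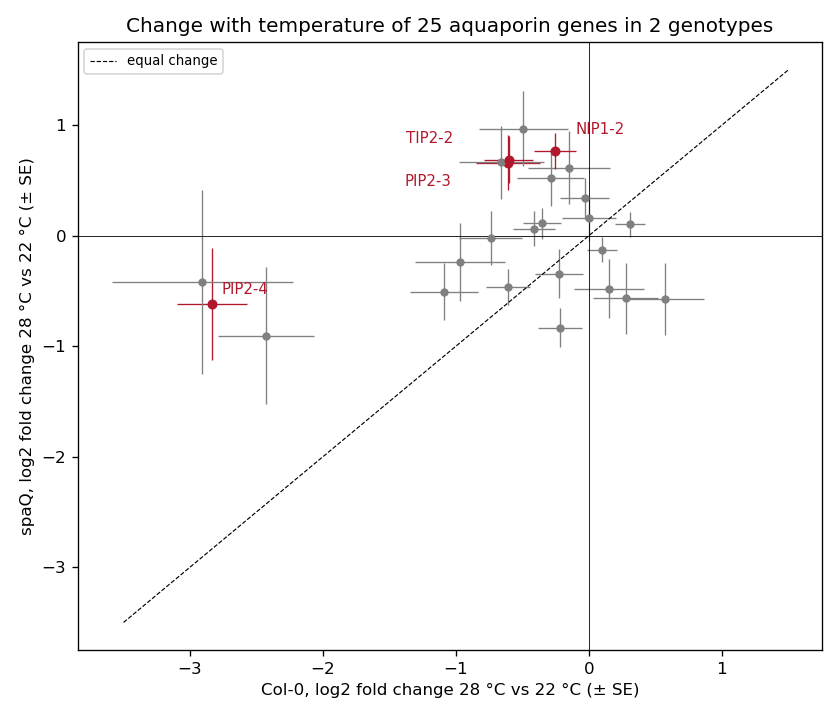
Log2 fold change at 28 °C against 22 °C in Col-0 (x axis) and spaQ (y axis), each with its SE, for 25 tested aquaporins, TIP2-3 left out because it was at or under the floor in spaQ. Red points are the 4 genes whose change differed between the genotypes at an adjusted p under 0.05, and the dashed line marks equal change. TIP2-2, PIP2-3 and NIP1-2 lie above the line with changes of 0.69, 0.66 and 0.77 in spaQ.

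The 9 members that were not tested were TIP1-3, TIP3-1, TIP3-2, TIP5-1, NIP2-1, NIP3-1, NIP4-1, NIP4-2 and NIP7-1. TIP5-1 and NIP4-1 had 0 counts in all 12 libraries, which allows up to 0.279 to 1.25 CPM depending on the library. TIP1-3, which is known from pollen, had 2 counts in all, and NIP4-2 had 4. NIP3-1 reached 3.35 CPM, in Col-0 at 22 °C. TIP3-1 and TIP3-2, the channels of seed protein storage vacuoles, reached 4.3 and 3.38 CPM in replicate 3 of spaQ at 28 °C, with 14 and 11 reads. The list of 8 seed and embryo markers summed to 198 CPM in that library, against 0 to 57.5 CPM in the other 11.

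Other genes of the same membranes were taken from lists. The plasma membrane proton pumps set the proton gradient across the membrane in which PIPs sit. Of 7 tested pumps, 2 were lower and 1 was higher at 28 °C in Col-0, or 42.9% called against 40.8% of all tested genes: AHA11 changed by -1.55, AHA2 by -0.63 and AHA1 by 0.33. At 22 °C 3 pumps were lower and 1 was higher in spaQ, with AHA11 at -1.34 and AHA1 at 0.55. This made 57.1% called, against 42.5% of all tested genes. Of 7 vacuolar pump genes 3 were lower at 28 °C in Col-0, among them the pyrophosphatase gene AVP1 at -0.88. That is 42.9%, against 40.8% of all tested genes. Between the genotypes at 22 °C, 0 of the 7 vacuolar pump genes were called by edgeR, against 42.5% of all tested genes. Of these 7, 1 had an unadjusted p under 0.05. At 28 °C 2 vacuolar pump genes were higher in spaQ, AVP1 by 0.71 and VHA-a3 by 0.57 (edgeR adjusted p = 0.0008 and 0.0016), and 2 plasma membrane pumps were higher, AHA2 by 0.61 and AHA1 by 0.32. The share called was 28.6% in each pump list, against 30.9% of all tested genes. Of 11 factors for aquaporin traffic, gating and turnover, 3 were higher and 1 was lower at 28 °C in Col-0, and 4 were higher in spaQ at 22 °C. The share called was 36.4% in both, against 40.8% and 42.5% of all tested genes. RMA2, a homologue of the membrane ubiquitin ligase RMA1 that acts on PIP2-1, was higher in Col-0 at 28 °C by 1.09 and in spaQ at 22 °C by 0.86. SYP121, a syntaxin that delivers PIPs to the plasma membrane, was higher by 1.26 and 1.18 in the same comparisons.

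The 250 bases before each gene start were searched on both strands for the G-box (CACGTG) and the PBE-box (CACATG or CATGTG), which PIF factors, known from temperature responses, can bind. The G-box was found in 0 of 35 aquaporins and in 6.49% of 27443 genes. The PBE-box was found in 11 of 35 aquaporins (31.4%) and in 11.1% of the same genes; neither motif contains the other, and a match is a description of sequence. The windows of TIP2-1 (chr3:5505110-5505359, plus strand) and NIP1-2 (chr4:10365794-10366043, plus strand) are shown, from RefSeq's TAIR10.1, as examples from a gene called lower and a gene called higher in spaQ at 28 °C, with the PBE-box in capitals.
TIP2-1: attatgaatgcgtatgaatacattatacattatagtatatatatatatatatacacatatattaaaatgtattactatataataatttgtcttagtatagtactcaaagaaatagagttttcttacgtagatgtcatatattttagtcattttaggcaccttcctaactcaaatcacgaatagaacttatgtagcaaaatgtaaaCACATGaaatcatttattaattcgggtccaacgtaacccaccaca
NIP1-2: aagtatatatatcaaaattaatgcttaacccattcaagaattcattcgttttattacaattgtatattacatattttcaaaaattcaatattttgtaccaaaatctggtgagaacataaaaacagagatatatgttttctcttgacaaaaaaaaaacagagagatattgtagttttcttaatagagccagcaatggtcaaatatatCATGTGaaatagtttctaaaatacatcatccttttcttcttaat
Both windows hold 1 match. The TIP2-1 call at 28 °C was lost in 11 of 12 fits that left out 1 library. Of the 11 aquaporins with a PBE-box, TIP3-1, TIP3-2 and NIP7-1 were not tested.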

How the data were processed

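RNA of 12 seedling libraries was measured by 3′ Tag-Seq per the labels' protocols. The authors deposited a table of raw counts, whole numbers without normalisation, with 1 column per library. The submitters' processing notes name FastQC, Bowtie2, TopHat, HTSeq and edgeR. The genome build and strand setting are not given in the sources used here. The table's 5 summary lines, which name no gene, were left out.

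Genes were filtered with filterByExpr (17841 kept) and TMM-normalised (factors 0.917 to 1.16). edgeR 4.0.16 (R 4.3.3) fitted 1 coefficient per group over all 12 libraries, and 5 contrasts were tested two-sided with the quasi-likelihood test, adjusted by Benjamini and Hochberg over all tested genes. A call is an adjusted p under 0.05. The script was tested on simulated data. CPM are TMM-normalised, and levels are compared within a gene. A floor of 3 counts per library covers counting error only, since no molecular identifiers are named and reads may be copies of 1 molecule.

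Loci were matched to RefSeq's TAIR10.1 annotation by locus tag (35 of 35), and its coordinates are those of that annotation. Called members are named, and of each other list the 3 genes with the lowest adjusted p may be named. Members and lists were chosen with earlier results of these data known. Alternatives were DESeq2 1.42.0, other scalings and filters, a replicate block, the compared libraries alone and each library left out.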

Additional observations from a re-analysis of the deposited data

Results flagged for a closer look

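The change with temperature differed between Col-0 and spaQ for 4 of 26 tested aquaporins, against 11.9% of all tested genes. The test was that of the difference itself in edgeR's quasi-likelihood model. The difference, spaQ minus Col-0 on the log2 scale, was 1.27 for PIP2-3, 2.22 for PIP2-4, 1.29 for TIP2-2 and 1.02 for NIP1-2. The calls of PIP2-3 and PIP2-4 were each lost in 9 of 12 fits that left out 1 library. The log2 fold change of TIP2-2 was -0.60 in Col-0 and 0.69 in spaQ, and that of PIP2-3 was -0.61 and 0.66. For NIP1-2 all 3 spaQ libraries at 28 °C were above all 3 at 22 °C, while the Col-0 groups overlapped. For PIP2-4 the value rests on few reads in spaQ. That gene was tested only through its Col-0 libraries at 22 °C, which favours a positive difference. PIP2-3 shares stretches of its transcript end with PIP2-2, so some of its reads could be assigned to either gene or left uncounted.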

How the results depend on the processing

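None of the 49 called member results reversed its direction, and 27 stayed called in each gene-level refit that was run (a minimum change was not applied to them, and the differing change has no fit of the compared libraries alone). The 27 include PIP2-4 and TIP2-3 in Col-0 with temperature and between genotypes at 22 °C. These genes were tested only through Col-0 at 22 °C, so their direction was favoured by that choice and their stability supports nothing. Among members not called, TIP4-1 at 28 °C between genotypes was 0.57 with all libraries and -2.64 without both libraries that stood apart (edgeR adjusted p = 0.017). The members called in Col-0 with temperature numbered 11, 5 with a log2 change of at least 1, 15 with only the compared libraries or without both libraries that stood apart, and 6 to 14 with 1 library left out. Within spaQ the 2 calls became 0 with only the compared libraries fitted by edgeR (4 at an unadjusted p under 0.05, 3 called by DESeq2 on all libraries), 0 with a log2 change of at least 1, 6 without both libraries that stood apart (an alternative chosen after seeing the data), and 2 to 7 with 1 library left out. Between genotypes at 22 °C the 18 calls became 20 with only the compared libraries, 21 without both libraries, and 15 to 20 with 1 library left out. At 28 °C the 14 calls became 8 with only the compared libraries, 21 without both libraries, 5 with a log2 change of at least 1, and 8 to 17 with 1 library left out. The 4 calls of a differing change became 2 with library totals in place of TMM, 7 with DESeq2, and 0 to 8 with 1 library left out, the 0 being without replicate 3 of spaQ at 22 °C, where 10 members had an unadjusted p under 0.05.

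Scaling by library totals moved the median of all genes in Col-0 with temperature from -0.02 to 0.19 and at 28 °C between genotypes from 0.03 to -0.24. The share of higher calls over all genes went from 46.3% to 68.3% and from 56.2% to 28.4%. The members' split of higher and lower went from 1 and 10 to 3 and 5, and from 3 and 11 to 1 and 16.

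Whether equal replicate numbers pair the samples is not known, since the labels do not say. Same-numbered samples of different groups deviated together at r over 0.1 in 2 of 18 pairs (-0.37 to 0.18). These values cannot decide it, since each group has 3 libraries and each spaQ group holds a library that stood apart. With the replicate number as a block, 9, 2, 17 and 13 members were called in the 4 pairwise comparisons and 2 for the differing change. Depth limits TIP2-3 and PIP2-4 in spaQ, where the libraries held 0 to 11 reads. It also limits NIP1-1, TIP4-1 and PIP2-5, which had 1 to 20, 1 to 47 and 7 to 30 reads per spaQ library. The cause of these shifts was not tested.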
